A study of Mus musculus with 7 samples.

Results

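The genes described here encode the red cell membrane skeleton, the proteins that carry blood group antigens, and surface, cytoplasmic and nuclear proteins typical of red cells and their precursors. They were chosen by name, and 31 of them were found among the 22680 genes of the expression table. Ahsp, which encodes a chaperone of alpha-globin, was not analysed here. RNA was sequenced from blood-forming cells of C57BL/6 mouse fetal liver at 13.5 days post coitum. The groups were 3 libraries of Uhrf1-/- LSK cells, 1 library of wild-type LK cells and 3 libraries of wild-type LSK cells. LSK stands for the lineage-negative fraction positive for both Sca-1 and c-Kit, where stem cells and multipotent progenitors are found. LK stands for the Sca-1-negative, c-Kit-positive fraction of more mature progenitors. The series speaks of independent experiments, but the sources used here do not state how or in which cells Uhrf1 was deleted, nor how many fetuses went into a library.

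A red cell keeps its shape because a mesh of spectrin and short actin filaments lies under its membrane. Ankyrin and protein 4.2 tie this mesh to the anion exchanger band 3, and protein 4.1 ties it to glycophorin C. Most of these proteins accumulate late, as erythroblasts mature, whereas the transcription factors that drive the program, among them GATA1 and KLF1, appear in earlier progenitors. Uhrf1 encodes a protein needed to copy DNA methylation onto newly made DNA, and the genotype comparison addressed what its loss changes in the fetal liver stem cell compartment.

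The libraries held between 16808501 and 25803042 estimated reads. Uhrf1 stood at 10.2, 8.78 and 18.6 FPKM (read fragments per length of transcript and depth of library) in Uhrf1-/- LSK cells, at 115.9 FPKM in LK cells and at 63.0, 66.8 and 112.8 FPKM in wild-type LSK cells. Ly6a, which encodes Sca-1, lay between 36.9 and 96.4 FPKM in Uhrf1-/- and between 26.4 and 56.8 FPKM in wild-type LSK cells. Kit lay at 27.9, 27.2 and 24.4 FPKM in Uhrf1-/- and at 29.0, 56.6 and 36.5 FPKM in wild-type LSK cells. Cd34 lay between 134.2 and 162.2 FPKM in Uhrf1-/- and between 193.6 and 361.0 FPKM in wild-type LSK cells. In LK cells Ly6a lay at 0.321, Kit at 30.5 and Cd34 at 94.6 FPKM. For Kit and Cd34 every Uhrf1-/- library was below every wild-type LSK library, as for 6.16% of all tested genes. Neither passed in limma (adjusted p = 0.94 and 0.88). Libraries differed beyond their groups. Immediate-early genes, which respond to handling of cells, summed to 1410, 1232 and 151.2 FPKM in Uhrf1-/- replicates 1 to 3, to 45.3 FPKM in LK cells and to 1344, 1514 and 77.9 FPKM in wild-type LSK replicates 1 to 3. The share of ribosomal protein genes was 4.2% in the second wild-type LSK library, while the other libraries lay between 9.62% and 14.4%. Replicate 3 of both genotypes thus stood apart from replicates 1 and 2 in the immediate-early genes, and wild-type replicate 2 in the ribosomal protein genes.

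In limma with the replicate number as a block, 5 of the 22 tested genes rose and 1 fell in Uhrf1-/- LSK cells, where 1.23% of all tested genes were called higher and 0.830% lower. Without the block, or with the block but without pair 2, the call was left for Car1 alone. The regions just before the start of Icam4, Hemgn, Cd59a and Rhd, 4 of these 6 genes, are shown because members moved in both directions and erythroid genes share binding words of GATA1 and KLF1. Ermap, which had the most reads among the members too low to be tested in LSK cells, is shown beside them. Each line gives the 120 bases before the start in RefSeq's promoter windows (GRCm38.p6), 5′ to 3′ on the gene's strand. For Cd59a and Ermap that start lies inside the annotated gene. Capitals mark words on either strand. The GATA words are AGATAA together with AGATAG, besides TGATAA together with TGATAG. The CACCC words are CCACACCC together with CCACGCCC, besides CCCCACCC together with CCCCGCCC.
Icam4, chr9:21029312-21029431, plus strand: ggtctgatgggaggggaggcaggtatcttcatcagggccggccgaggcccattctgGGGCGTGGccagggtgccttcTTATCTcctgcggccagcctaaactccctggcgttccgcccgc
Hemgn, chr4:46404184-46404303, minus strand: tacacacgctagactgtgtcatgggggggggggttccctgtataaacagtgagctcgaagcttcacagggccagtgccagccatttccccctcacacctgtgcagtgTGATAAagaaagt
Cd59a, chr2:104095681-104095800, plus strand: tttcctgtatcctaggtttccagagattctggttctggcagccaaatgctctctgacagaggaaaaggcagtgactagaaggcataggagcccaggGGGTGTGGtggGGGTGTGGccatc
Rhd, chr4:134864416-134864535, plus strand: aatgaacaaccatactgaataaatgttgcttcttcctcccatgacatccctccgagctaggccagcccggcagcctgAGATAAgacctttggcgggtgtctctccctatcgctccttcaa
Ermap, chr4:119189996-119190115, minus strand: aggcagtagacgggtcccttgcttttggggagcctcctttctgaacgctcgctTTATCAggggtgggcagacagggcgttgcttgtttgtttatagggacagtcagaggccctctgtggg

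Icam4 had 1 word of each kind, with the GATA word starting 43 bases and the CACCC word 64 bases before the start. Cd59a had 2 CACCC words and no GATA word, and Hemgn, Rhd and Ermap each had 1 GATA word and no CACCC word. In the 250 bases before the start, a GATA word stood in 12 of 28 windows of 23 members (42.9%) and in 26.5% of all 32851 RefSeq windows. A CACCC word stood in 14 of the 28 windows (50%) and in 27.4% of all windows. Both kinds of word stood in 4 windows (14.3%), those of Icam4, Add2, Epb4.1 and Tmcc2, against 4.31% of all windows. These windows held between 0 and 31 CpG sites, the sites at which Uhrf1 maintains methylation, with a median of 7.5 against 6 in all windows. Cd59a had 0, Hemgn 3, Rhd and Ermap 5 and Icam4 9. Letters in a window do not show that a factor binds there.

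**Figure D1:**
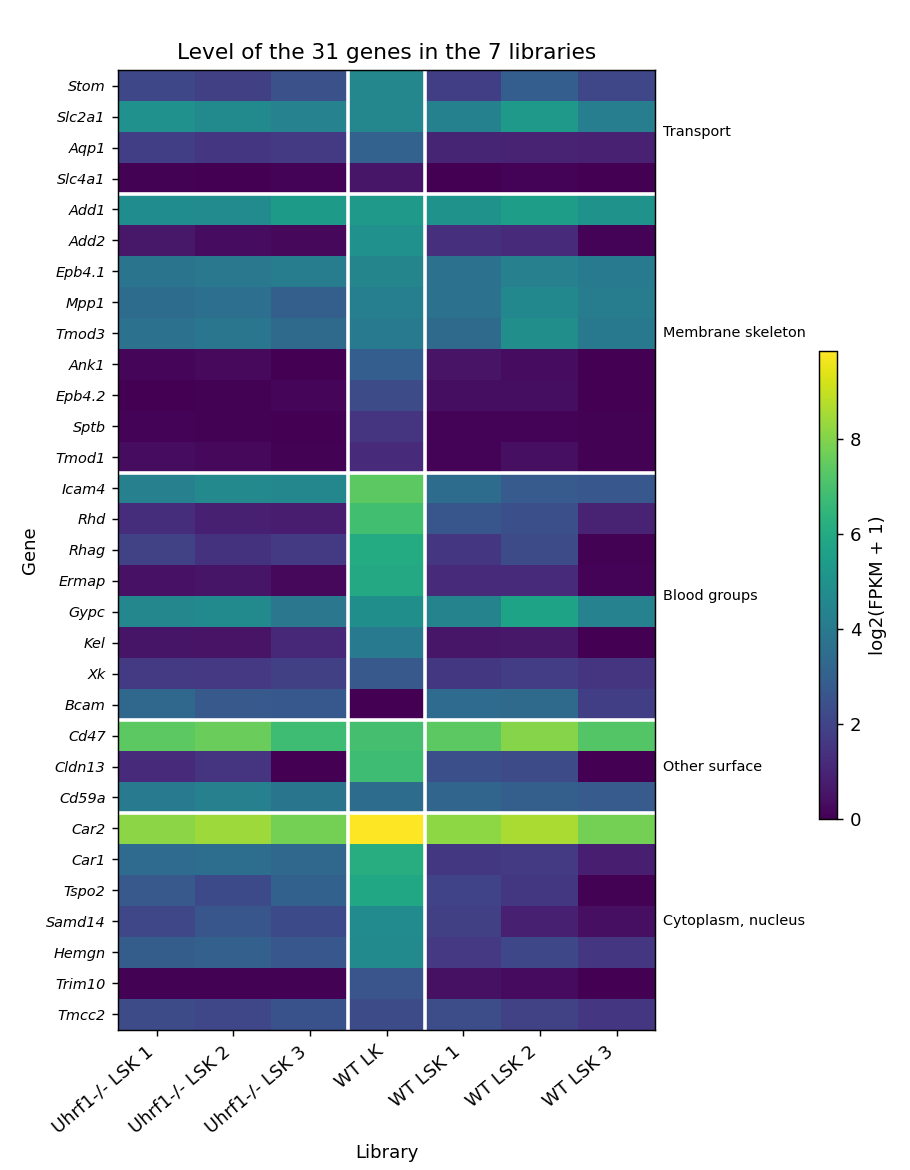
Colour gives log2(FPKM + 1) of each of the 31 genes (rows, grouped by role and ordered by their level in LK cells) in each of the 7 libraries (columns). The LK column is brightest for most rows, Bcam is at 0 there, and Ermap, Rhag, Cldn13, Kel and Tspo2 are darkest in wild-type LSK replicate 3 among the wild-type libraries.

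The level of these genes in LSK cells spanned a wide range. Car2, a carbonic anhydrase found in many blood-forming cells, and Cd47, the signal that protects cells from being eaten by macrophages, ranked first and second in both genotypes. At the low end were Slc4a1, which encodes band 3, and Sptb, which encodes erythroid beta-spectrin. In all, 22 members averaged at least 1 FPKM in Uhrf1-/- LSK cells, 29 in LK cells and 21 in wild-type LSK cells, and the median member stood at 3.90 FPKM in Uhrf1-/- LSK cells, 22.4 FPKM in LK cells and 2.49 FPKM in wild-type LSK cells. The limma fit took genes averaging 1 FPKM or more across the LSK libraries, among them 22 of the 31 members. The other 9 were Slc4a1, Sptb, Ank1, Epb4.2, Add2, Tmod1, Ermap, Kel and Trim10.

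Of the 22 tested members, 1 rose and 0 fell in Uhrf1-/- LSK cells at a limma adjusted p under 0.05, where the share over all 10608 tested genes was 0.113% for higher and 0.0566% for lower. The libraries carry replicate numbers, and libraries of the same number deviated together. With the number as a block, 5 members rose and 1 fell, where the share over all tested genes was 1.23% for higher and 0.830% for lower. Without pair 2 the blocked fit called Car1 alone, and with no filter on low values it called 0 members, with 9 at an unadjusted p under 0.05. At an unadjusted p under 0.05 without the block, 7 members were higher and 2 lower, against 2.77% and 2.80% of all tested genes. The ranges of the libraries did not overlap for 8 members, 7 higher and 1 lower, against 4.61% and 6.16% of all tested genes. As a whole the list did not shift in 1 direction: the log2 fold change was above 0 for 12 tested members and below 0 for 10, and its median was 0.05, against -0.03 over all tested genes. In replicate pairs 1, 2 and 3 the median difference of the members was 0.20, -0.39 and 0.36 on the log2(FPKM + 1) scale, against -0.01, -0.05 and -0.05 over all tested genes. Here, as in all bulk samples, fewer cells of a type and less RNA per cell cannot be told apart.

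**Figure D2:**
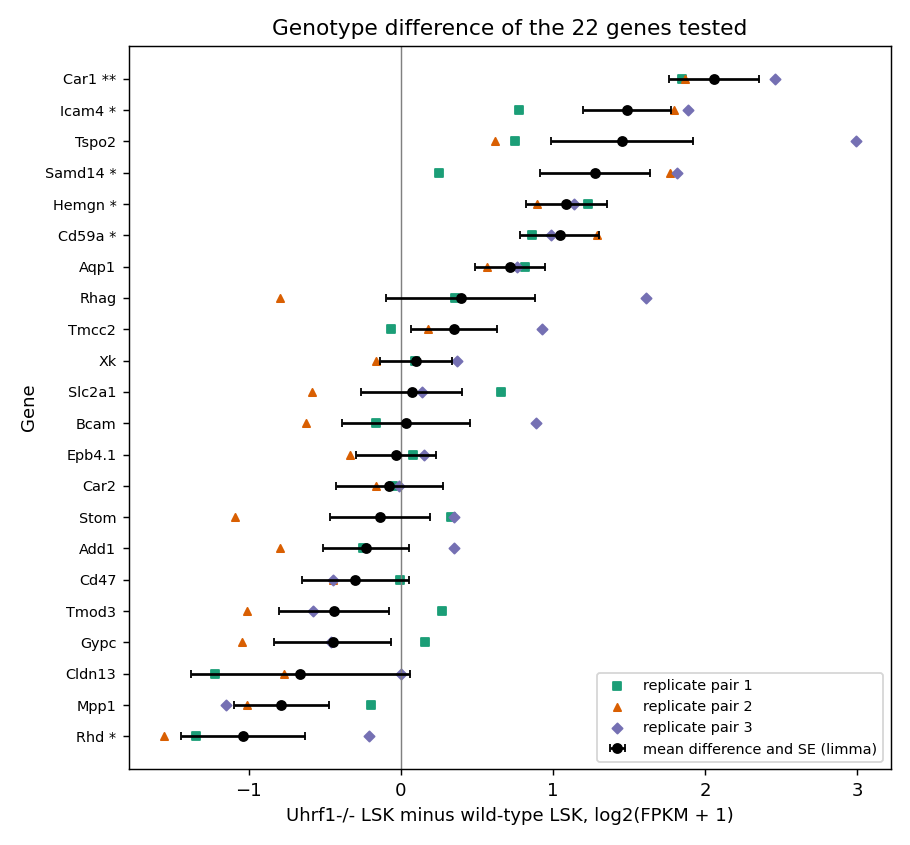
Black points give the log2(FPKM + 1) difference of Uhrf1-/- minus wild-type LSK cells for the 22 tested members with its SE from limma, and coloured points the difference within each replicate pair. A pair of asterisks marks Car1, called with and without the replicate block, and 1 asterisk marks genes called with the block only. Car1, at 2.06, lies farthest right and Rhd, at -1.04, farthest left.

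The group of cytoplasmic and nuclear proteins held most of the members that rose. Each gene was given a single role: the membrane proteins Tspo2 and Tmcc2 were placed in this group, and Aqp1 under transport. Car1 (Entrez gene 12346; chromosome 3, 14766214 to 14808365, a protein-coding gene), the carbonic anhydrase that red cells contain in large amounts, stood at 9.91, 10.6 and 8.67 FPKM in Uhrf1-/- LSK cells, at 69.9 FPKM in LK cells and at 2.04, 2.19 and 0.760 FPKM in wild-type LSK cells. Every Uhrf1-/- library was above every wild-type LSK library and below the LK library. The mean was 9.74 ± 0.999 FPKM against 1.66 ± 0.785 FPKM (SD, n = 3 each), with a log2 fold change of 2.06 (SE 0.30, limma adjusted p = 0.027; with the replicate block adjusted p = 6.9e-05). It was the 1 member called without the block. That call was lost when any 1 of the 6 libraries was left out (adjusted p from 0.065 to 0.109), while the blocked call held without any 1 pair, with an adjusted p of at most 0.035, and was lost with no filter on low values (0.249).

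Car2 (Entrez gene 12349; chromosome 3, 14886269 to 14900770), the neighbour and paralog of Car1, did not pass. It stood at 281.4, 341.2 and 218.8 FPKM in Uhrf1-/- LSK cells, at 922.6 FPKM in LK cells and at 291.4, 382.7 and 220.7 FPKM in wild-type LSK cells, a log2 fold change between genotypes of -0.08 (SE 0.35, limma adjusted p = 0.98). The genotypes overlapped, and within each number the Uhrf1-/- library was close to its wild-type partner, with differences of -0.05, -0.17 and -0.01. The difference between the responses of Car1 and Car2 was not tested.

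Hemgn (Entrez gene 93966; chromosome 4, 46393989 to 46404183), a nuclear protein of blood-forming cells, stood at 6.40, 7.16 and 5.46 FPKM in Uhrf1-/- LSK cells, at 24.3 FPKM in LK cells and at 2.15, 3.39 and 1.94 FPKM in wild-type LSK cells. The genotypes did not overlap, with a log2 fold change of 1.09 (SE 0.27, limma adjusted p = 0.191; blocked adjusted p = 0.015). The blocked call was lost without pair 2 (0.172), without pair 3 (0.099) and without trend and robust moderation (0.068). Samd14 (Entrez gene 217125; chromosome 11, 95009395 to 95026087), whose product promotes c-Kit signalling in erythroid progenitors of the mouse, stood at 3.32, 5.24 and 3.61 FPKM in Uhrf1-/- LSK cells, at 25.8 FPKM in LK cells and at 2.63, 0.831 and 0.312 FPKM in wild-type LSK cells. Its log2 fold change was 1.28 (SE 0.36, limma adjusted p = 0.314; blocked adjusted p = 0.033), and most of it came from pairs 2 and 3 (1.77 and 1.81, against 0.25 in pair 1). The blocked call was lost after median-of-ratios scaling (adjusted p = 0.055), with a pseudocount of 0.1 (0.101), without trend and robust moderation (0.136), without pair 2 (0.529) and without pair 3 (0.083).

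Tspo2 (Entrez gene 70026; chromosome 17, 48447942 to 48451564), a cholesterol-binding membrane protein of late erythroblasts, stood at 5.65, 3.64 and 7.36 FPKM in Uhrf1-/- LSK cells, at 57.8 FPKM in LK cells and at 2.95, 2.02 and 0.0519 FPKM in wild-type LSK cells. The genotypes did not overlap, but it passed in neither fit (limma adjusted p = 0.532; blocked adjusted p = 0.352). Its pairs were uneven, with differences of 0.75, 0.62 and 2.99, and wild-type replicate 3 held 1 estimated read. Tmcc2, a transmembrane protein gene, had a log2 fold change of 0.35 (SE 0.28) and did not pass.

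**Figure D3:**
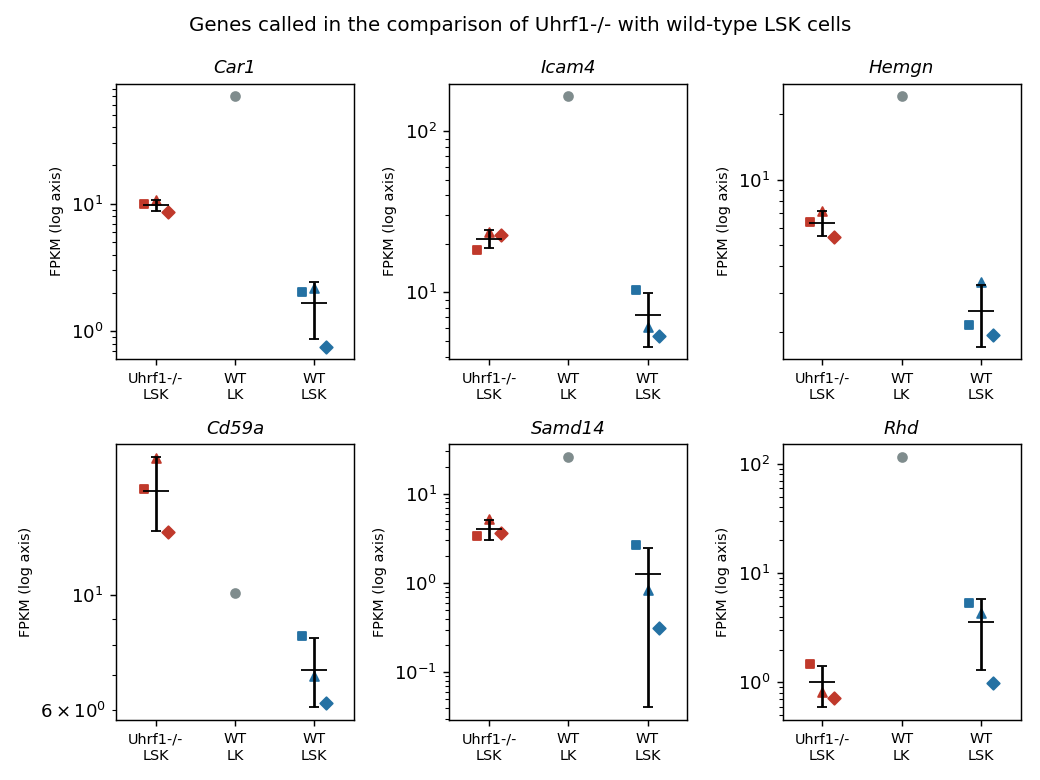
FPKM on a log axis of the 6 members called with the replicate block, by group. Squares, triangles and diamonds are replicates 1, 2 and 3, the circle is the 1 LK library, and bars give mean and SD (n = 3). For Car1, Icam4, Hemgn, Cd59a and Samd14 every Uhrf1-/- library is above every wild-type LSK library, and for Rhd replicates 1 and 2 hold the separation.

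Blood group proteins went both ways. Icam4 (Entrez gene 78369; chromosome 9, 21029432 to 21030596), the adhesion molecule that carries the LW antigen and attaches erythroblasts to macrophages, stood at 18.3, 23.6 and 22.6 FPKM in Uhrf1-/- LSK cells, at 164.8 FPKM in LK cells and at 10.3, 6.09 and 5.40 FPKM in wild-type LSK cells. The genotypes did not overlap, and the mean was 21.5 ± 2.79 FPKM against 7.26 ± 2.64 FPKM (SD, n = 3 each). The log2 fold change was 1.49 (SE 0.29, limma adjusted p = 0.095; blocked adjusted p = 0.0033), and the blocked call was lost without pair 2 (0.201).

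Rhd (Entrez gene 19746; chromosome 4, 134864536 to 134896172), the mouse gene for the Rh protein, stood at 1.47, 0.815 and 0.721 FPKM in Uhrf1-/- LSK cells, at 115.3 FPKM in LK cells and at 5.28, 4.35 and 0.994 FPKM in wild-type LSK cells. The genotypes overlapped, since wild-type replicate 3 lay below Uhrf1-/- replicate 1. The log2 fold change was -1.04 (SE 0.41, limma adjusted p = 0.771; blocked adjusted p = 0.047), with differences of -1.35, -1.56 and -0.21 in pairs 1, 2 and 3. This blocked call was lost without pair 1 (adjusted p = 0.075) or pair 2 (0.632), with a pseudocount of 0.5 (0.051) or 0.1 (0.075), without trend and robust moderation (0.192), after median-of-ratios scaling (0.072) and on the count values (0.098).

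Rhag, the partner that Rh proteins need to reach the membrane, did not pass. It stood at 2.74, 1.74 and 2.16 FPKM in Uhrf1-/- LSK cells, at 65.3 FPKM in LK cells and at 1.92, 3.74 and 0.0340 FPKM in wild-type LSK cells, and the genotypes overlapped (log2 fold change 0.39, SE 0.49, limma adjusted p = 0.94; blocked adjusted p = 0.76). The highest and the lowest level among the LSK libraries were thus both in wild-type cells. Gypc (chromosome 18, 32528320 to 32560034), glycophorin C, stood at 22.5, 24.4 and 14.1 FPKM in Uhrf1-/- LSK cells, at 28.8 FPKM in LK cells and at 20.0, 51.4 and 19.8 FPKM in wild-type LSK cells. The genotypes overlapped (log2 fold change -0.45, SE 0.39, limma adjusted p = 0.94), and wild-type replicate 2 stood above the other 6 libraries. Xk, which is bound to the Kell protein in the membrane, lay between 2.11 and 2.68 FPKM in Uhrf1-/- LSK cells, at 5.75 FPKM in LK cells and between 1.84 and 2.49 FPKM in wild-type LSK cells.

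Bcam, which carries the Lutheran antigens and binds laminin, was the 1 member listed at 0 in LK cells. It stood at 8.73, 5.81 and 5.59 FPKM in Uhrf1-/- LSK cells, was listed at 0 in LK cells and stood at 9.89, 9.49 and 2.56 FPKM in wild-type LSK cells. In reads, it had between 152 and 234 in Uhrf1-/- LSK cells, 0 in the LK library and between 109 and 377 in wild-type LSK cells. Between genotypes it did not pass (log2 fold change 0.03, SE 0.42, limma adjusted p = 0.997).

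Among the other surface proteins, Cd59a (Entrez gene 12509; chromosome 2, 104095753 to 104115410), which shields cells from complement, stood at 16.01, 18.4 and 13.2 FPKM in Uhrf1-/- LSK cells, at 10.1 FPKM in LK cells and at 8.34, 6.96 and 6.18 FPKM in wild-type LSK cells. Every Uhrf1-/- library was above every wild-type library, the LK library included. The log2 fold change between LSK genotypes was 1.05 (SE 0.26, limma adjusted p = 0.199; blocked adjusted p = 0.024), with 0.86, 1.29 and 0.99 in the 3 pairs. The blocked call was lost without pair 2 (adjusted p = 0.27), without pair 3 (0.147) and without trend and robust moderation (0.081). The mouse has a related gene, Cd59b, and how any shared reads were divided between them is not known here. Cd47 stood at 164.0, 193.4 and 108.5 FPKM in Uhrf1-/- LSK cells, at 122.2 FPKM in LK cells and at 164.4, 263.4 and 148.6 FPKM in wild-type LSK cells (log2 fold change -0.30, SE 0.35, limma adjusted p = 0.94). Cldn13, a rodent claudin of erythroblasts, stood at 1.28, 1.87 and 0 FPKM in Uhrf1-/- LSK cells, at 109.5 FPKM in LK cells and at 4.32, 3.88 and 0 FPKM in wild-type LSK cells. It was listed at 0 in replicate 3 of both genotypes, and it did not pass (blocked adjusted p = 0.27).

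The transport proteins did not pass in either fit. Aqp1 (Entrez gene 11826; chromosome 6, 55336299 to 55348555), the water channel that carries the Colton antigens, stood at 2.54, 1.94 and 2.16 FPKM in Uhrf1-/- LSK cells, at 7.64 FPKM in LK cells and at 1.01, 0.979 and 0.863 FPKM in wild-type LSK cells. The genotypes did not overlap and each differed little among its own libraries (log2 fold change 0.72, SE 0.23, limma adjusted p = 0.486; blocked adjusted p = 0.145). Slc2a1, the glucose transporter GLUT1, stood at 30.4, 25.2 and 19.4 FPKM in Uhrf1-/- LSK cells, at 22.4 FPKM in LK cells and at 18.9, 38.2 and 17.5 FPKM in wild-type LSK cells. Stom, stomatin, stood at 3.42, 2.60 and 4.41 FPKM in Uhrf1-/- LSK cells, at 22.5 FPKM in LK cells and at 2.52, 6.66 and 3.24 FPKM in wild-type LSK cells. For both genes the genotypes overlapped and wild-type replicate 2 was highest among the LSK libraries.

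The 4 tested genes of the membrane skeleton had negative log2 fold changes, from -0.79 to -0.03, and 0 passed in either limma fit, with 1 at an unadjusted p under 0.05 without the block. That one was Mpp1 (Entrez gene 17524; chromosome X, 75109733 to 75131016), the palmitoylated protein p55 that joins protein 4.1 to glycophorin C. It stood at 10.1, 11.1 and 6.82 FPKM in Uhrf1-/- LSK cells, at 18.1 FPKM in LK cells and at 11.7, 23.4 and 16.4 FPKM in wild-type LSK cells. The genotypes did not overlap (log2 fold change -0.79, SE 0.31, limma adjusted p = 0.778; blocked adjusted p = 0.155), though Uhrf1-/- replicate 2 and wild-type replicate 1 lay close together. Mpp1 overlaps Dkc1 in the annotation. Sptb likewise overlaps Plekhg3, Epb4.1 overlaps Tmem200b, Tmod1 overlaps Tstd2 and Xk overlaps H2al1m. Reads of overlapping genes cannot be told apart here.

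Add1, alpha-adducin, which caps actin filaments, stood at 26.9, 25.7 and 40.7 FPKM in Uhrf1-/- LSK cells, at 38.2 FPKM in LK cells and at 32.2, 45.4 and 31.7 FPKM in wild-type LSK cells. Its partner Add2, beta-adducin, which is largely confined to blood and nerve cells, was far lower, at 0.535, 0.241 and 0.144 FPKM in Uhrf1-/- LSK cells, at 30.7 FPKM in LK cells and at 1.52, 1.34 and 0.0718 FPKM in wild-type LSK cells. In LSK cells the same contrast held for the tropomodulins, which cap the slow-growing end of actin filaments. In LK cells Tmod3 stood at 15.5 FPKM and Tmod1 was still low, at 1.30 FPKM. Tmod3, the broadly expressed one, averaged 11.6 ± 1.98 FPKM in Uhrf1-/- and 17.6 ± 9.71 FPKM in wild-type LSK cells (SD, n = 3 each), while the erythroid Tmod1 averaged 0.145 ± 0.108 and 0.146 ± 0.147 FPKM. Epb4.1, protein 4.1, which many cell types express, stood at 13.0, 14.5 and 17.2 FPKM in Uhrf1-/- LSK cells, at 21.4 FPKM in LK cells and at 12.2, 18.6 and 15.3 FPKM in wild-type LSK cells. Add1, Tmod3 and Epb4.1 did not pass (limma adjusted p = 0.94, 0.94 and 0.99).

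The 9 members under the minimum were counted in estimated reads, the count value over its library's step. Together they held 133, 120 and 104 estimated reads in Uhrf1-/- LSK replicates 1 to 3, 12235 in the LK library and 321, 436 and 44 in wild-type LSK replicates 1 to 3. The most abundant was Ermap, a butyrophilin-like protein that carries the Scianna antigens, with 39, 43 and 16 reads in Uhrf1-/- LSK cells, 6308 in LK cells and 110, 158 and 11 in wild-type LSK cells. Ank1, erythroid ankyrin, had 14, 23 and 1 reads in Uhrf1-/- LSK cells, 992 in LK cells and 49, 40 and 1 in wild-type LSK cells.

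Epb4.2, protein 4.2, had 0, 3 and 8 reads in Uhrf1-/- LSK cells, 302 in LK cells and 20, 27 and 3 in wild-type LSK cells. Trim10, a ring-finger protein of terminal erythroid differentiation, had 1, 1 and 2 reads in Uhrf1-/- LSK cells, 226 in LK cells and 12, 11 and 0 in wild-type LSK cells. In these 4 genes the Uhrf1-/- libraries of replicates 1 and 2 were lower than their wild-type partners, and in replicate 3 both genotypes had at most 16 reads. Kel, the Kell protein, had 22, 20 and 60 reads in Uhrf1-/- LSK cells, 874 in LK cells and 21, 34 and 0 in wild-type LSK cells. Sptb, Tmod1 and Slc4a1 had between 0 and 14 reads in Uhrf1-/- LSK cells, between 45 and 345 in LK cells and between 0 and 24 in wild-type LSK cells.

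By FPKM, the Uhrf1-/- library was lower than its wild-type partner for 7 of these 9 members in pair 1 and for 9 of 9 in pair 2, and higher for 7 of 9 in pair 3. Over all 6116 genes under the minimum with any value above 0, 43.9% were lower in pair 1, 45.5% were lower in pair 2 and 33.1% were higher in pair 3. These shares are held down by genes with equal values, 1186, 1014 and 1652 of the 6116 in pairs 1, 2 and 3, against 0 of the members. Summed levels were 1.95, 1.58 and 1.77 FPKM in Uhrf1-/- LSK cells and 4.53, 4.35 and 0.262 FPKM in wild-type LSK cells, so the sum varied more in the wild-type libraries. Kel alone gave 1.22 FPKM of the sum in Uhrf1-/- replicate 3. Ermap, Add2, Ank1, Sptb and Tmod1 were lowest in replicate 3 within both LSK genotypes. Kel, Epb4.2, Trim10 and Slc4a1 were highest in replicate 3 among the Uhrf1-/- libraries. Globin genes of maturing red cells varied as well. Of 5 tested, Hbb-b1 and Hbb-b2 were higher in Uhrf1-/- LSK cells at an unadjusted limma p under 0.05 without the block. The share over all tested genes was 2.77%. The other 3 had log2 fold changes below 0, and 0 of the 5 passed in either fit. Hbb-b2 stood at 393.0, 389.9 and 426.6 FPKM in Uhrf1-/- and at 335.0, 98.6 and 190.3 FPKM in wild-type LSK cells, without overlap. Hba-a1, an adult alpha-globin gene, stood at 4.24, 28.9 and 11.3 FPKM in Uhrf1-/- LSK cells, at 662.8 FPKM in LK cells and at 79.5, 5.07 and 4.91 FPKM in wild-type LSK cells. The macrophage genes C1qa, C1qb and C1qc, which mark cells that surround erythroblasts and engulf their expelled nuclei, summed to 33.5, 35.4 and 2.12 FPKM in Uhrf1-/- LSK cells, to 0.771 FPKM in LK cells and to 146.5, 70.1 and 1.12 FPKM in wild-type LSK cells. Their sum was high in the libraries where Ermap, Rhd and Ank1 were highest among LSK cells, and its part in these values was not tested. Over the 9 macrophage markers found, the sum ran from 3.17 to 38.3 FPKM in Uhrf1-/- LSK cells, was 1.73 FPKM in LK cells and ran from 1.21 to 151.2 FPKM in wild-type LSK cells, while Vcam1 was between 0 and 0.378 FPKM in all 7 libraries.

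**Figure D4:**
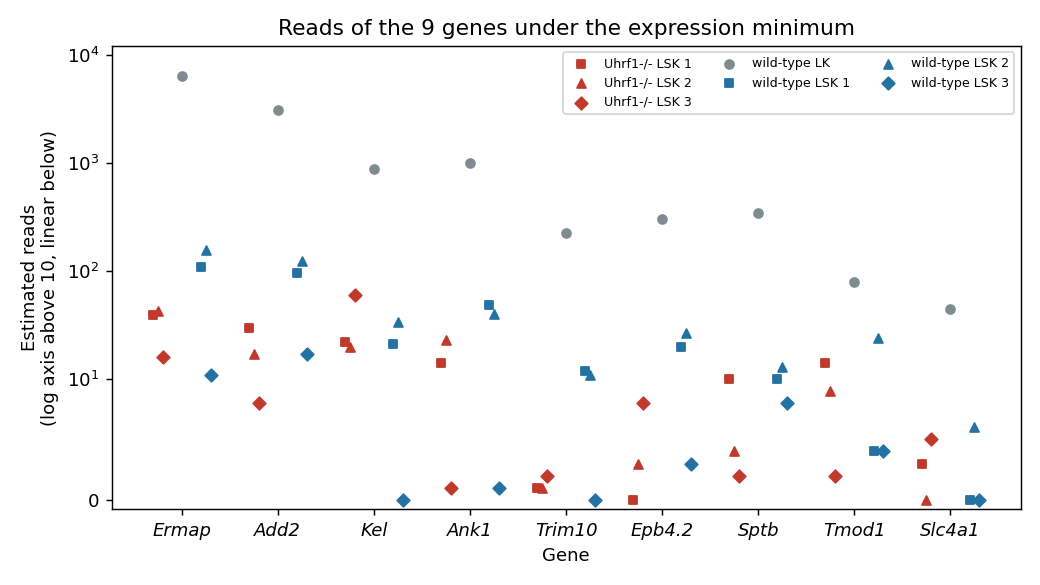
Estimated reads of the 9 members under the expression minimum in each library, on an axis that is logarithmic above 10 and linear below. In replicates 1 and 2 Ermap, Add2, Ank1, Trim10 and Epb4.2 are lower in Uhrf1-/- than in wild-type LSK cells. In replicate 3 these genes have at most 17 reads in either genotype, while Kel has 60 in the Uhrf1-/- library, and the LK library has 45 to 6308 reads.

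Against the wild-type LSK libraries, the LK library was higher by more than 1 on the log2(FPKM + 1) scale for 20 of the 31 members and lower by more than 1 for Bcam alone. With 1 LK library there is no replicate check and no test. Among members averaging 1 FPKM or more across these 4 libraries, 18 of 28 were higher past this limit, against 9.06% of 10680 genes for higher and 13.0% for lower. The LK library was above every wild-type LSK library for 20 of the 28, against 33.7% of these genes. Members that reached the minimum through the LK library alone had to be higher in it. Over all 31, the LK level lay above every wild-type LSK library for 23 members, within their range for 6 and below it for Bcam and Cd47.

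Within each role the differences spread widely. The largest were 5.22 for Cldn13, 5.13 for Ermap, 4.84 for Rhd, 4.78 for Car1, 4.77 for Rhag, 4.66 for Tspo2 and 4.37 for Icam4. Among the 8 blood group genes they ran down to 0.07 for Gypc and -2.89 for Bcam. Of the cytoplasmic and nuclear genes, 6 of 7 were past the limit, from 1.66 for Car2 to 4.78 for Car1. Of 9 skeleton genes, 5 were past it, namely Add2 (4.1), Ank1 (2.67), Epb4.2 (1.99), Sptb (1.42) and Tmod1 (1.01). The other 4 skeleton genes, Epb4.1, Mpp1, Add1 and Tmod3, differed by between -0.04 and 0.47. Slc4a1 had 45 reads in the LK library and stayed under the limit, with 0.499 FPKM in LK cells and between 0 and 0.0594 FPKM in wild-type LSK cells. Sptb, at 1.83 FPKM in LK cells, was also low there beside Ank1 at 6.74 FPKM and Rhd at 115.3 FPKM. For the members that rose in Uhrf1-/- LSK cells, the Uhrf1-/- mean was lower than the LK library by 2.73 for Car1, 2.89 for Icam4, 1.79 for Hemgn and 2.43 for Samd14, and higher by 0.59 for Cd59a. The 2 sets of differences share the wild-type LSK libraries, and no relation between them was computed.

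**Figure D5:**
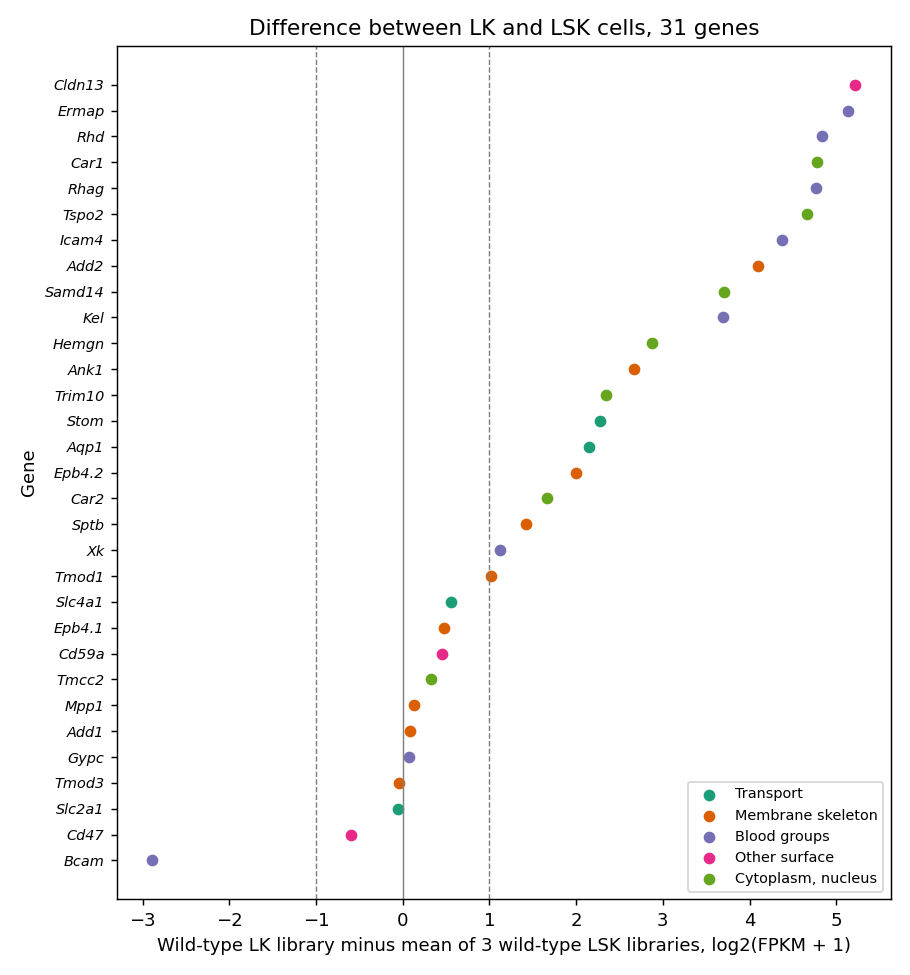
Difference of the LK library minus the mean of the 3 wild-type LSK libraries on the log2(FPKM + 1) scale for the 31 members, coloured by role. Dashed lines mark 1 and -1. Cldn13, at 5.22, is at the top and Bcam, at -2.89, is the 1 member below -1.

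Of a list of 29 further membrane and blood group genes found in the table, 21 were tested between LSK genotypes. The limma fit called 0 of them in either direction with or without the replicate block, with 2 at an unadjusted p under 0.05 without it, both higher. These were Slc14a1, the urea transporter that carries the Kidd antigens, at 3.10, 2.88 and 3.21 FPKM in Uhrf1-/- LSK cells, 17.5 FPKM in LK cells and 0.904, 2.45 and 0.538 FPKM in wild-type LSK cells (blocked adjusted p = 0.084), and Kcnn4. Kcnn4, the calcium-activated potassium channel through which red cells lose water, stood at 110.1, 101.2 and 108.5 FPKM in Uhrf1-/- LSK cells, at 82.0 FPKM in LK cells and at 82.0, 57.7 and 57.1 FPKM in wild-type LSK cells (blocked adjusted p = 0.222). In both genes the LSK genotypes did not overlap. The median log2 fold change of the 21 was -0.01.

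By group mean in LSK cells, the 10 listed regulators of the program stood at higher levels than most of the members. Limma called 2 of them higher without the block and 5 with it, against 0.113% and 1.23% of all tested genes, and 0 lower. LK was above every wild-type LSK library for 5 of the 10, within their range for 3 and below it for 2. Gata2 was higher in Uhrf1-/- LSK cells (limma adjusted p = 0.039), but at 24.7 FPKM in LK cells it lay within the wild-type LSK range. Gata1 stood at 54.3, 55.4 and 68.3 FPKM in Uhrf1-/- LSK cells, at 133.0 FPKM in LK cells and at 8.01, 9.18 and 2.09 FPKM in wild-type LSK cells, and it was called in both fits (limma adjusted p = 0.021). Klf1, which activates many of the members in erythroblasts, stood at 34.3, 38.9 and 33.6 FPKM in Uhrf1-/- LSK cells, at 306.7 FPKM in LK cells and at 27.1, 20.1 and 2.26 FPKM in wild-type LSK cells. The LSK genotypes did not overlap for Klf1 and it passed in neither fit (limma adjusted p = 0.94; blocked adjusted p = 0.56). Its pair differences of 0.33, 0.92 and 3.41 were uneven in the way of Tspo2, with the lowest level of both genes in wild-type replicate 3. Megakaryocyte genes, which share regulators with this program, summed to between 186.0 and 274.9 FPKM in Uhrf1-/- LSK cells, to 43.2 FPKM in LK cells and to between 105.8 and 191.0 FPKM in wild-type LSK cells, and their part in the members' values was not tested. Globin genes summed to between 598.7 and 619 FPKM in Uhrf1-/- and between 199.2 and 674.6 FPKM in wild-type LSK cells, and to 1401 FPKM in LK cells. The genes in this sum did not move together, since LK was above every wild-type LSK library for 4 of 8 and within their range for 4. How reads were divided among the globin copies is not known here. Hbb-bs stood at 231.8 FPKM in LK cells and between 1.10 and 19.4 FPKM in wild-type LSK cells. Hbb-b2 stood at 267.0 FPKM in LK cells and between 98.6 and 335.0 FPKM in wild-type LSK cells. Hepatoblast genes summed to between 23.7 and 38.5 FPKM in all 7 libraries, with Trf alone between 10.6 and 34.6 FPKM. For 7 of these 10 genes the LK library was above every wild-type LSK library, and for Trf it was below them. Apoa2 stood at 13.8 FPKM in LK cells and between 1.20 and 5.16 FPKM in wild-type LSK cells. Endothelial genes summed to between 27.6 and 32.5 FPKM in Uhrf1-/- and between 29.3 and 42.8 FPKM in wild-type LSK cells. In LK cells they summed to 8.95 FPKM.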

How the data were processed

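The table gives 2 values per gene and library. The deposited count values are not whole and were read as a signal scaled by 1 factor per library. Of the low values, 98.2% to 98.6% came out whole (tolerance 0.02) once divided by the step of their library. That step was the most frequent of the library's lowest nonzero values, and the quotient is called estimated reads. The authors deposited FPKM beside it, used unchanged. Per the submitters' processing notes the tools include TopHat2 2.0.9 and Cufflinks 2.1.1 and the build is mm10, with no role stated. No source used here names the annotation, strand setting or counting options.

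The test between genotypes was limma (3.58.1, R 4.3.3), two-sided, on log2(FPKM + 1), with trend and robust moderation, over genes averaging 1 FPKM or more in the 6 LSK libraries, adjusted after Benjamini-Hochberg, at a threshold of 0.05. Since a pseudocount of 1 was added, changes of low genes are understated. Libraries of the same number deviated together from their group means (correlations 0.349, 0.332 and 0.645), so the numbers were read as pairs and blocked values are given. What a shared number stands for is not stated in the labels, and crossed pairs 1 and 2 also correlated (0.213 and 0.159). A p-value covers only the spread among these libraries, which may be technical. Alternatives were other pseudocounts, filters, scalings and moderation, the count values, and leaving out each library or pair. The fits were tested on simulated data. Positions and promoter windows come from RefSeq on GRCm38.p6, matched by gene ID, with promoter windows for 23 of 31 members.

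The members and lists were chosen with earlier results of these data known. Values in every library are given for members called in either fit, at an unadjusted p under 0.05, with ranges that did not overlap, or among the top 2 of their role by level. Further members were added for paralogs or after their values were seen.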

Additional observations from a re-analysis of the deposited data

How the results depend on the processing

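The fit without the block called 12 genes higher and 6 lower over all genes and 1 and 0 members, and with the replicate block 131 and 88 genes and 5 and 1 members. All 18 genes called without the block were called with it. With no filter on low values limma called 0 genes and 0 members in either direction, with 967 genes and 8 members at an unadjusted p under 0.05. On the count values 21 genes were higher and 15 lower. With a mean of at least 5 FPKM 2 genes were lower, and without trend and robust moderation 1 gene was lower and 0 members were higher. The cause of these shifts was not tested. Without 1 library or pair, genes called higher ranged from 0 to 338 (117 in the block without pair 3) and lower from 0 to 318 (84 in the block without pair 3), and members from 0 to 6 and from 0 to 1. Without pair 2, the blocked fit called Car1 alone among the members, and without pair 1 it also called Tspo2 higher (adjusted p = 3.6e-06) and Mpp1 lower (0.013).

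The fits with the block were the blocked fit that called these 6 members and its alternatives, some of them added after seeing the data. Counting that blocked fit, Car1 passed in 10 of 11, Icam4 in 9 of 11 and Cd59a in 7 of 11. Hemgn passed in 6 of 10, Samd14 in 4 of 10 and Rhd in 2 of 10. None of the 6 passed with no filter on low values, where adjusted p lay between 0.249 and 0.525. Over the tested members the median log2 fold change ran from -0.17 to 0.35 and changed sign. The count of members past the limit in LK cells lay between 18 and 20.

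Direction turned in 8 of the 22 tested members, none of them called in the fit with or without the block. Leaving out 1 library moved Slc2a1 to at most 0.41, Rhag to at most 0.87, Bcam to at most 0.31, Stom to at least -0.37, Epb4.1 to at least -0.18 and Car2 to at least -0.27. Slc2a1 turned to -0.03 on the count values, to between -0.13 and -0.07 without Uhrf1-/- replicate 1 (-0.08) or wild-type replicate 1 or 3, and to -0.22 in the block without pair 1. Stom turned to 0.01 without Uhrf1-/- replicate 2, to 0.19 without wild-type replicate 2 and to 0.34 without pair 2. Epb4.1 turned to 0.01 after median-of-ratios scaling, to 0.05 and 0.10 without Uhrf1-/- replicate 1 or wild-type replicate 2, and to 0.12 without pair 2. Add1 turned to 0.05 without pair 2, and Car2 to 0.09 and 0.12 without Uhrf1-/- replicate 3 or wild-type replicate 2. Rhag turned to -0.22 without wild-type replicate 3 and in the block without pair 3, and Xk to -0.04 in the block without pair 3. Bcam turned to -0.14 on the count values, also with the block, to -0.15 and -0.49 without Uhrf1-/- replicate 1 or wild-type replicate 3, and to -0.39 in the block without pair 3. Members under the minimum rest on few reads.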
